A study of Mus musculus with 12 samples.

Results

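Non-muscle myosin is the motor that pulls on actin filaments outside the contractile apparatus of muscle. The genes described here are 6 members of that family, the heavy chain genes Myh9 and Myh10, the regulatory light chain genes Myl9, Myl12a and Myl12b, and the essential light chain gene Myl6. They are 6 of the 46078 genes listed, and 5 of them had a read. They were matched by gene symbol, and they were chosen from the family with the results of these same 12 libraries known. Their levels and differences are therefore given as descriptions, with no p-value.

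The libraries are RNA-seq of BV2, a mouse microglial cell line, in 4 groups of 3. The groups are cells labelled Atg5 KO with 1 U/mL IFNγ for 24 h, Atg5 KO cells in medium, wild-type (WT) cells with the same IFNγ, and WT cells in medium. Atg5 is needed to build autophagosome membranes, and IFNγ is the cytokine that activates macrophages and microglia. The sources used here do not say how many KO clones were used, so a difference between a KO clone and the WT line that does not come from Atg5 cannot be told apart from the genotype. Replicates are lettered A, B and C and are described as made independently. The design text says that replicates were pooled in a library, which with barcoded primers can mean pooling after barcoding.

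A non-muscle myosin holds a pair of heavy chains, each carrying an essential and a regulatory light chain. The heavy chain sets the kinetics of the motor: the Myh9 product, non-muscle myosin IIA, is the main form in leukocytes, and the Myh10 product, IIB, is abundant in brain and many adherent cells. Phosphorylation of the regulatory light chain, by kinases such as myosin light chain kinase, lets the molecules assemble into filaments and work on actin. In microglia and macrophages this motor serves migration, phagocytosis and cell shape.

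Reads came from cytosolic poly-A RNA primed with barcoded oligo-dT, so they report transcript ends and are not scaled by transcript length. Depth was 3329849 to 7330435 reads per library. A level below is the deposited log2(normalised count + 1). All 12 of 12 microglia and macrophage markers were kept, with a summed normalised count of 7411 to 10177 per library. Cd68, Tyrobp, Spi1 and Ptprc, shared by macrophages, carried most of it, with 24122, 21990, 17646 and 17075 reads over the 12 libraries. Tmem119, P2ry12 and Cx3cr1, which mark microglia in the brain, had only 62, 87 and 207. Of 10 fibroblast and mural cell markers none was kept and 7 had no read in any library, and the sum was at most 6.31. Of 8 striated muscle markers 1 was kept, and the sum ran from 1.05 to 28.7. Atg5 transcript averaged 8.85 ± 0.17 in KO medium and 8.48 ± 0.11 in WT medium (SD, n = 3 each; log2 difference 0.37, limma adjusted p = 0.595). The part of Atg5 that was disrupted is not given in the labels, so this level at the transcript end checks neither label. Libraries were pooled by their Actb signal, and Actb itself differed by 0.34 on the log2 scale between KO and WT in medium (adjusted p = 0.777).

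The 6 genes lie on 5 chromosomes of GRCm38. Myh9 (ENSMUSG00000022443) lies at chr15:77760587-77842175 on the minus strand and Myh10 (ENSMUSG00000020900) at chr11:68691559-68816632 on the plus strand. Myl12b (ENSMUSG00000034868) at chr17:70973133-70990890 and Myl12a (ENSMUSG00000024048) at chr17:70993656-71002878 are neighbours on the minus strand. Myl9 (ENSMUSG00000067818) lies at chr2:156775420-156781658 on the plus strand and Myl6 (ENSMUSG00000090841) at chr10:128490860-128494145 on the minus strand. Exons of Myl12a and of Myl12b overlap a further annotated gene of the same strand, ENSMUSG00000117098, which has no row here. Exons of Myl12a also overlap Myom1 on the other strand, which had 60 reads in all 12 libraries. Reads from such overlaps may be lost or shared, so the values of Myl12a and Myl12b are less certain than those of the other members. Over the last 300 bases of the transcript, where the reads fall, Myl12a and Myl12b were 47.5% identical with a longest shared run of 7 bases. Over the same length Myh9 and Myh10 were 45.3% identical with a longest shared run of 9 bases.

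The promoters of both heavy chain genes are shown because Myh10 had no read in 1 group while Myh9 was high in all of them. Each is the 300 bases from 250 before to 50 after the start given by RefSeq for GRCm38.p6, on the strand of the gene, at chr11:68691665-68691964 for Myh10 and chr15:77842126-77842425 for Myh9. The Myh9 start is the same in both annotations, but the Myh10 start of RefSeq lies inside the gene as GENCODE gives it, so that the whole Myh10 window falls after the GENCODE start. Capitals mark the CCAAT box (CCAAT, or ATTGG on the other strand), a common promoter element bound by NF-Y.
Myh10 promoter: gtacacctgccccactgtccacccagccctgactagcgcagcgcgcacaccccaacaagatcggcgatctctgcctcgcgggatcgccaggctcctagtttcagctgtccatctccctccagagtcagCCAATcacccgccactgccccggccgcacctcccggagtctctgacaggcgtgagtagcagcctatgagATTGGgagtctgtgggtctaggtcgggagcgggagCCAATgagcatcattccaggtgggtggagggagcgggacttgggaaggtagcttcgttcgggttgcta
Myh9 promoter: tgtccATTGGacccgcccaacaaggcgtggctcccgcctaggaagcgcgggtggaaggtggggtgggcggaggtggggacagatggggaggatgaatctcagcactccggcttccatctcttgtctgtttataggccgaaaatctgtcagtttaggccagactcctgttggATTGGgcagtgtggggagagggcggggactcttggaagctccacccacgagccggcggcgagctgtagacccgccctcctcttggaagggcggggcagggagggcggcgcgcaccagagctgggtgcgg
The Myh10 window held 3 CCAAT boxes, at offsets of -122, -53 and -18 bases from the start, and the Myh9 window held 2. At least 1 was held by 37.4% of all 32851 promoter windows given by RefSeq. On both strands, neither heavy chain window held a pair of GAAA words spaced by any 2 bases, the core of the interferon-stimulated response element (in 3.44% of all windows). Neither held a CArG box, the site of serum response factor (in 1.63%). A CArG box was found in the Myl9 window, at an offset of -161 bases, and in 1 of the 2 Myl6 windows, at -50. The motifs do not overlap one another, and CCAAT was chosen after the sequences had been seen. These are matches of letters in these windows only.

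Myh10, the heavy chain of the IIB motor, had the largest differences between groups of the 6 genes. It had 102, 114 and 26 reads in the KO IFNγ libraries A, B and C, and no read in any of the 3 KO medium libraries. It had 104, 149 and 45 reads in the WT IFNγ libraries and 64, 46 and 41 in the WT medium libraries. As levels these were 6.93, 6.72 and 4.40 in KO IFNγ and 0 in each KO medium library, against 7.04, 7.30 and 5.78 in WT IFNγ and 5.63, 5.24 and 5.33 in WT medium. The transcript was thus undetected in KO cells in medium, at 0 of 15203660 reads, and present in every other library.

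**Figure D1:**
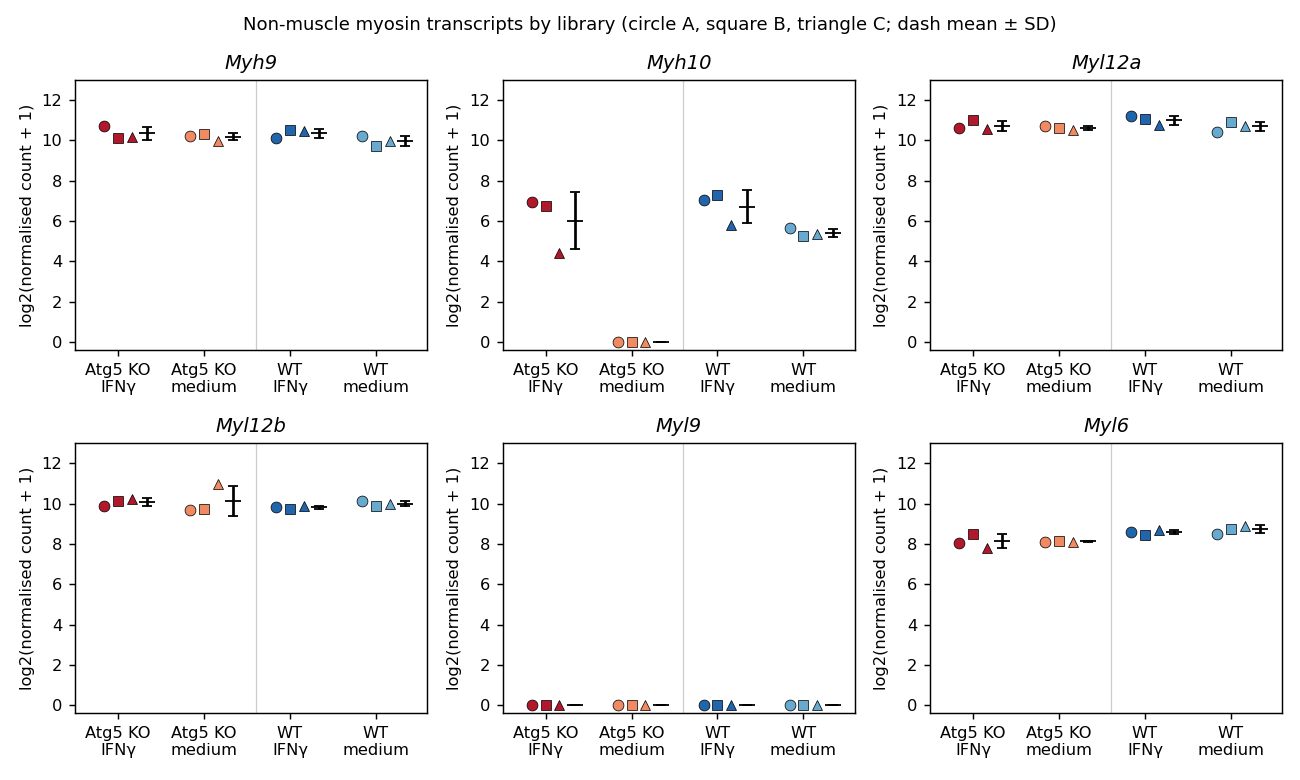
Level of each of the 6 genes, as log2(normalised count + 1), in each library (circle A, square B, triangle C), with the mean and SD of 3 libraries beside them. Myh10 is at 0 in the 3 KO medium libraries and between 4.40 and 7.30 in the other 9, while Myl9 is at 0 throughout. The remaining genes lie between 7.82 (Myl6, KO IFNγ C) and 11.18 (Myl12a, WT IFNγ A).

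With IFNγ, Myh10 in KO cells was at least 71.7-fold higher than in KO medium, the bound that 3 reads over the untreated group allows. In medium, Myh10 in KO cells was at least 39.9-fold lower than in WT cells, by the same floor. In WT cells the ratio of normalised reads was 2.77 in IFNγ over medium, and the lowest treated library, at 5.78, lay just above the highest untreated one, at 5.63. Among treated cells the groups overlapped, with a mean level of 6.02 ± 1.41 in KO IFNγ and 6.71 ± 0.81 in WT IFNγ (SD, n = 3 each). The order of mean levels was WT IFNγ, KO IFNγ, WT medium and KO medium, and the KO IFNγ range took in the whole WT medium range. Between untreated cells, fewer cells expressing a gene and less of its RNA per cell cannot be told apart in bulk libraries.

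In both treated groups library C had the lowest Myh10, at 4.40 in KO and 5.78 in WT. The same libraries had the lowest level of Irf1, a direct target of IFNγ signalling. Irf1 stood at 11.22, 11.02 and 9.86 in KO IFNγ A, B and C and at 5.73 to 6.67 in KO medium. In WT IFNγ it stood at 11.22, 11.07 and 8.93, against 6.31 to 6.81 in WT medium. The part of the weaker response of these libraries in the Myh10 values was not tested. Without both C libraries the Myh10 difference between IFNγ and medium was 6.83 in KO and 1.77 in WT on the log2 scale.

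Few kept genes were without a read in KO medium. Of 10981 genes kept by the filter on low values, 53 had no read in the 3 KO medium libraries. Only Gpr141, Kif1a and Myh10 among them also had a read in each of the other 9 libraries. Of 8710 genes with a mean level of at least 5 in WT medium, 4 had no read in KO medium, namely Myh10, Ppic, Ptgfrn and Slc32a1. These names were taken after the values were seen, and the same counts were not made for the other groups. The nearest kept genes on either side of Myh10 on its chromosome were present in KO medium. On the side before its start, the log2 difference of KO from WT in medium was 0.04 for Pik3r6 (adjusted p = 0.995) and -0.18 for Pik3r5 (adjusted p = 0.908). On the other side it was -0.12 for Ndel1 (adjusted p = 0.961) and 0.30 for Rpl26 (adjusted p = 0.846).

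Myh9, the heavy chain of the IIA motor, was high in every library. Its levels were 10.73, 10.12 and 10.18 in KO IFNγ and 10.21, 10.33 and 9.99 in KO medium, against 10.09, 10.49 and 10.45 in WT IFNγ and 10.21, 9.73 and 9.98 in WT medium. The groups overlapped in every comparison, and the differences ran from -0.20 to 0.37 on the log2 scale. By the mean over all 12 libraries Myh9 was above 91.9% of the kept genes. Myh10 was above 16.9% by the same mean, which takes in the 3 libraries at 0 and so describes no single group.

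As a share of all heavy chain reads, Myh10 was 6.67%, 8.58% and 1.70% in KO IFNγ. In KO medium it was 0% of 731, 1681 and 955 heavy chain reads, where 3 reads per library would be 0.410%, 0.178% and 0.314% and the 95% Wilson upper limits were 0.523%, 0.228% and 0.401%. In WT IFNγ the share was 10.7%, 9.83% and 3.74%, and in WT medium 3.94%, 4.16% and 3.75%. The 95% Wilson intervals were 7.19% to 10.2% for KO IFNγ B, 8.93% to 12.8% for WT IFNγ A and 3.09% to 4.99% for WT medium A. These intervals and limits cover counting error only. The WT IFNγ C library, with a share of 3.74%, lay just below the 3 WT medium libraries in this measure. In no library did Myh10 reach the read number of Myh9.

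**Figure D2:**
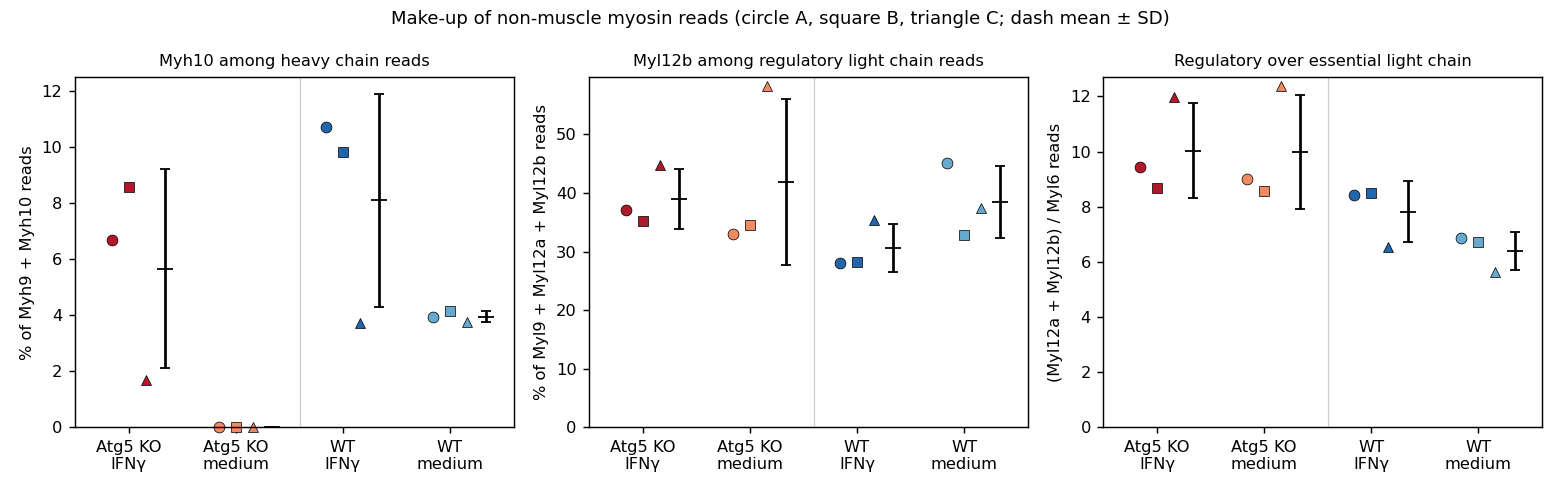
Share of Myh10 among heavy chain reads (left), share of Myl12b among regulatory light chain reads (middle) and ratio of regulatory to Myl6 reads (right) in each library (circle A, square B, triangle C), with mean and SD of 3 libraries. The Myh10 share is 0 in KO medium and 1.70% to 10.7% in the libraries with a read, and the light chain ratio is between 8.58 and 12.4 in KO libraries and between 5.62 and 8.50 in WT libraries.

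The regulatory light chain came from Myl12a and Myl12b, both near-identical proteins, while Myl9, the form of smooth muscle, had no read in any of the 12 libraries. Myl12a levels were 10.62, 11.00 and 10.54 in KO IFNγ and 10.71, 10.63 and 10.49 in KO medium, against 11.18, 11.07 and 10.75 in WT IFNγ and 10.43, 10.91 and 10.72 in WT medium. Its groups overlapped in every comparison, and its mean level was above 94.9% of the kept genes.

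Myl12b levels were 9.86, 10.12 and 10.24 in KO IFNγ and 9.69, 9.71 and 10.96 in KO medium. In WT they were 9.83, 9.73 and 9.88 with IFNγ and 10.14, 9.88 and 9.98 in medium. The KO medium library C stood above all others. Without it the log2 difference of KO from WT in medium was -0.30, against 0.12 with it, and the IFNγ difference in KO was 0.38, against -0.05 with it. The share of Myl12b among regulatory light chain reads was 37.0%, 35.2% and 44.8% in KO IFNγ and 32.9%, 34.5% and 58.2% in KO medium. It was 28.1%, 28.3% and 35.4% in WT IFNγ and 45.0%, 32.8% and 37.4% in WT medium. Myl12a therefore supplied most of these reads except in KO medium C.

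Myl6, the essential light chain of non-muscle and smooth muscle myosin, had levels of 8.06, 8.51 and 7.82 in KO IFNγ and 8.12, 8.15 and 8.12 in KO medium. In WT it had 8.59, 8.46 and 8.67 with IFNγ and 8.51, 8.74 and 8.91 in medium. In medium all 3 KO libraries lay below all 3 WT libraries, with a log2 difference of -0.59 ± 0.20 (limma SE). With IFNγ the difference was -0.44 ± 0.20, and KO library B overlapped the WT range. Reads of Myl12a and Myl12b per Myl6 read were 9.44, 8.69 and 12.0 in KO IFNγ and 9.02, 8.58 and 12.4 in KO medium. The ratio was 8.43, 8.50 and 6.54 in WT IFNγ and 6.88, 6.72 and 5.62 in WT medium. Every KO library was above every WT library in this ratio, the nearest being KO medium B at 8.58 and WT IFNγ B at 8.50. The highest, 12.4, was in KO medium C, where Myl12b stood above all other libraries. How often ratios of other genes separate the genotypes in this way was not counted, and the values of Myl12a and Myl12b are less certain. Nothing is therefore read from this separation. Together the members took 0.0725% to 0.0914% of the reads of a library.

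Across all kept genes, limma called 730 genes for IFNγ in WT, 808 for IFNγ in KO, 47 for KO against WT in medium and 54 for KO against WT with IFNγ at an adjusted p under 0.05. For the difference between the IFNγ responses it called 0, with 792 at an unadjusted p under 0.05. Of the 5 members that passed the low-value filter, with Myh10 passing through the 9 libraries outside KO medium, none was past this threshold for IFNγ in WT, where 4.53% of kept genes were called higher and 2.12% lower. In KO cells 1 member, Myh10, was past it as higher with IFNγ, where 4.67% of kept genes were called higher and 2.69% lower. For KO against WT in medium 1 member, again Myh10, was past it as lower, where 0.31% were called lower and 0.118% higher. With IFNγ none was, where 0.209% were called higher and 0.282% lower. For the difference between the responses none was, where 0.0% were called in each direction. The groups did not overlap for 1 member, Myh10, with IFNγ in WT (24.1% of kept genes) and in KO (24.4%), and for Myh10 and Myl6 between untreated genotypes (13.6%). With IFNγ no member separated the genotypes (16.1%). Nothing is read from these counts, since the same libraries chose the members.

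**Figure D3:**
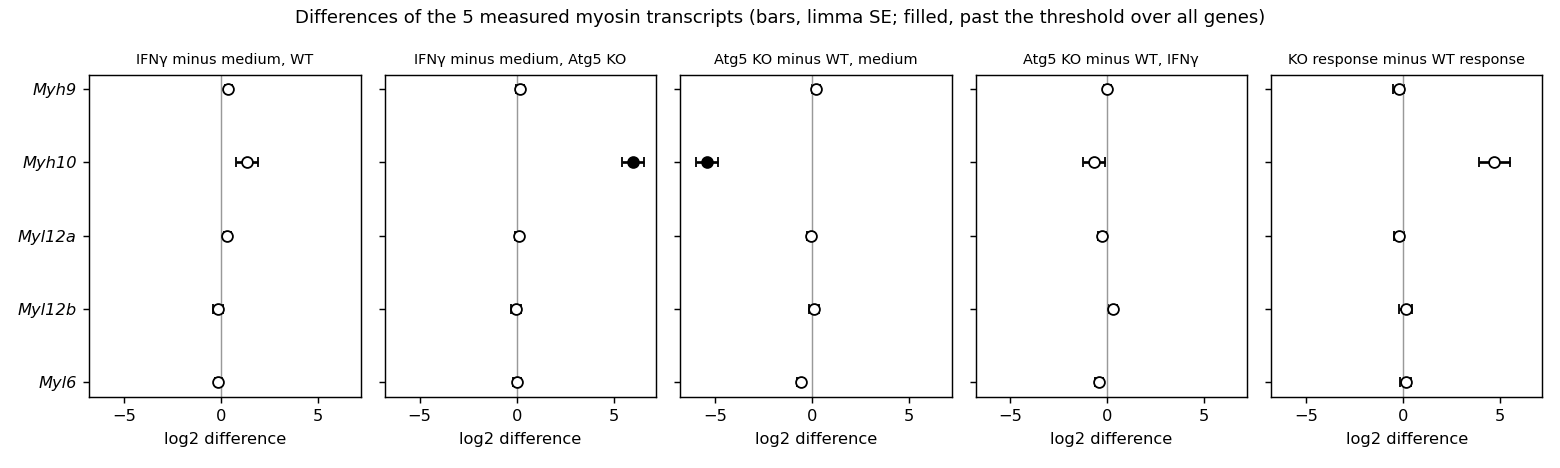
Log2 difference of the 5 members with reads in each of the 5 comparisons, with each panel titled as the first group minus the other, the limma standard error as a bar, and filled points for values past the threshold over all genes. The Myh10 values of 6.02 for IFNγ in KO cells and -5.40 for KO against WT in medium are the only filled points.

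On the log2 scale the Myh10 difference was 6.02 ± 0.56 for IFNγ in KO and 1.31 ± 0.56 for IFNγ in WT (limma SE). It was -5.40 ± 0.56 for KO against WT in medium and -0.69 ± 0.56 for KO against WT with IFNγ. The response in KO minus that in WT was 4.71 ± 0.79. Values against a group with no read depend on the pseudocount of 1 and are no bound: with a pseudocount of 8 the medium difference was -2.62. Over all 21 settings it ran from -6.25 to -2.62, the lowest being voom on recovered reads (-6.25 ± 1.79 SE), where it was not past the threshold. IFNγ in KO ran from 3.21 to 6.83, IFNγ in WT from 1.01 to 1.77 and the difference between the responses from 2.02 to 5.52. IFNγ in KO was past the threshold in all 21 settings, and IFNγ in WT only in 1, without both IFNγ C libraries. The difference between the responses was past it in 3 settings. These were the replicate letter as a block, leaving out KO IFNγ C, and leaving out both IFNγ C libraries. The standard errors pool the spread over the 4 groups, and the 3 KO medium libraries, all at 0, add none to it.

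By Pearson correlation of levels over the 12 libraries, the genes most like each member were as follows, as a description over libraries that share their groups. Those most like Myh10 were 6530402F18Rik (r = 0.95), Spef1 (0.94) and Trpm1 (0.93), and those most like Myh9 were Ppp2r2d (0.87), Map3k2 (0.87) and Spryd3 (0.84). Myl12a was most like Mmadhc (0.95), Rpl10 (0.95) and Rab7 (0.94). Myl12b was most like Gse1 (0.92), Ndufc2 (0.88) and Ccdc14 (0.87), and Myl6 most like Ephb2 (0.91), Fam43a (0.91) and Lat2 (0.90). Between the members themselves r ran from -0.47 for Myl12a with Myl12b to 0.52 for Myh10 with Myl12a. Members were left out of the search.

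Other conventional myosin chains were close to silent. Of 20 such genes, which include the muscle heavy chains, Myh11 of smooth muscle and Myh14, the heavy chain of non-muscle myosin IIC, none passed the low-value filter and 14 had no read. The highest was Mylpf, a fast skeletal regulatory light chain, with 28 reads over the 12 libraries. Myh14 had 0 reads and Myh11 had 4. Of 23 unconventional myosins 11 were kept and 0 were called in any comparison (at most 2 at an unadjusted p under 0.05 in any of them).

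Of 16 kinases that act on the regulatory light chain 10 were kept, and limma called 0 in every comparison, with at most 2 at an unadjusted p under 0.05 in any of them. The median log2 difference of the kept kinases was -0.12 for KO against WT in medium and 0.39 with IFNγ, beside -0.0078 and -0.0038 over all genes. For IFNγ it was 0.23 in KO, beside 0.01 over all genes, and -0.21 in WT, beside -0.02. Mylk, the classical myosin light chain kinase, was not kept, with 0 reads in KO IFNγ, 1 in KO medium, 7 in WT IFNγ and 2 in WT medium.

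Of 11 subunits and inhibitors of the myosin phosphatase 8 were kept, and 1 of them rose with IFNγ in KO cells. This was Ppp1r12b, a myosin-targeting subunit of that phosphatase. Its levels were 6.93, 7.14 and 6.80 in KO IFNγ and 6.18, 6.08 and 4.73 in KO medium (log2 difference 1.30 ± 0.34 SE, adjusted p = 0.0237). In WT it had 6.75, 7.24 and 6.49 with IFNγ and 5.59, 5.89 and 6.15 in medium. The WT groups also did not overlap, with means of 6.83 and 5.87, but this rise did not pass the test. The KO call was lost without KO medium C (adjusted p = 0.118), KO IFNγ A (0.0690) or KO IFNγ B (0.0827).

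Of 14 partners of myosin filaments 9 were kept, and 2 fell with IFNγ in each genotype. Lsp1, a leukocyte actin-binding protein that also binds myosin, had 3.22, 2.70 and 4.11 in KO IFNγ and 6.64, 6.45 and 6.93 in KO medium (difference -3.33 ± 0.42, adjusted p = 2.09e-05). In WT it had 3.62, 4.32 and 5.06 with IFNγ and 6.26, 6.52 and 7.17 in medium (difference -2.32 ± 0.42, adjusted p = 0.00138). S100a4, a calcium-binding protein that takes apart filaments of the Myh9 product, had 9.14, 9.14 and 9.51 in KO IFNγ and 11.03, 11.03 and 10.63 in KO medium (difference -1.63, adjusted p = 1.13e-05). In WT it had 9.32, 9.17 and 9.76 with IFNγ and 10.97, 10.77 and 11.14 in medium (difference -1.54, adjusted p = 1.95e-05). The treated and untreated groups did not overlap for either gene in either genotype. None of the 9 was called between KO and WT, in medium (1 at an unadjusted p under 0.05) or with IFNγ (3).

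**Figure D4:**
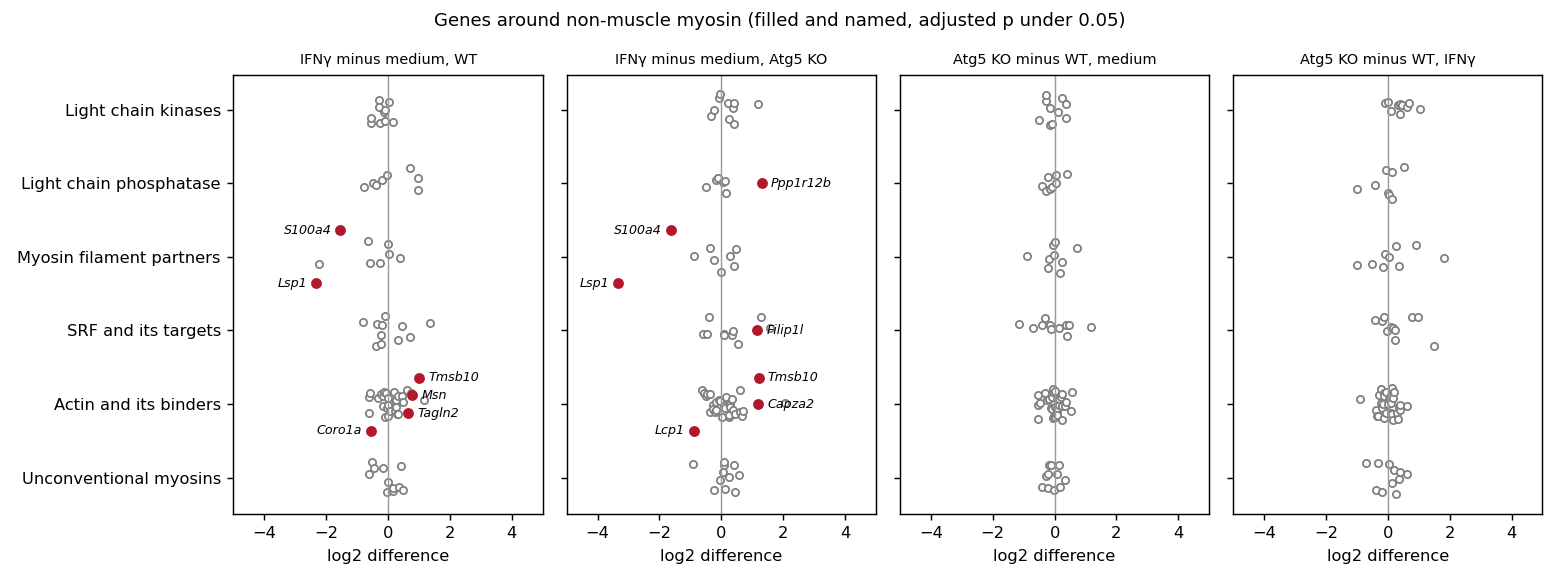
Log2 difference of each kept gene in the lists drawn, in the 4 comparisons named above the panels as the first group minus the other. The lists drawn are light chain kinases, light chain phosphatase, myosin filament partners, serum response factor and its targets, actin and its binders, and unconventional myosins. Calls at an adjusted p under 0.05 are filled and named. Lsp1 moves furthest among the called genes shown, with -3.33 in KO and -2.32 in WT, and no light chain kinase or unconventional myosin is filled.

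Serum response factor and its cofactors drive many actin and myosin genes. Of 23 rows for this factor, its cofactors and its targets 11 were kept, and 1 rose with IFNγ in KO. Filip1l, a filamin-interacting protein, had 9.10, 8.81 and 9.32 in KO IFNγ and 7.73, 8.04 and 8.00 in KO medium (difference 1.16 ± 0.22, adjusted p = 0.00195). In WT it had 7.61, 8.24 and 8.42 with IFNγ and 7.80, 7.65 and 7.90 in medium, where the groups overlapped. The difference between these responses was 0.85 ± 0.31 (adjusted p = 0.592).

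Of 39 genes for actin and its binding proteins 32 were kept. With IFNγ, 2 rose and 1 fell in KO, and 3 rose and 1 fell in WT. Tmsb10, which sequesters actin monomers, had 8.97, 8.39 and 8.72 in KO IFNγ and 6.78, 7.87 and 7.82 in KO medium (difference 1.21 ± 0.27, adjusted p = 0.00724). In WT it had 8.27, 8.89 and 8.49 with IFNγ and 7.71, 7.34 and 7.61 in medium (difference 1.00 ± 0.27, adjusted p = 0.0279). The KO call was lost without KO medium A (0.0511), and the WT call without WT IFNγ B (0.157) or WT medium A (0.0565), B (0.130) or C (0.0679). Capza2, a capping protein subunit, rose in KO (difference 1.19 ± 0.23, adjusted p = 0.00218). Lcp1, the leukocyte plastin that bundles actin, fell in KO (difference -0.88 ± 0.19, adjusted p = 0.00525). In WT, Lcp1 had 12.10, 12.45 and 12.53 with IFNγ and 13.01, 12.97 and 12.91 in medium. These WT groups did not overlap either, but the fall did not pass the test. In WT, Msn (0.79, adjusted p = 0.0477), a membrane linker, and Tagln2 (0.64, adjusted p = 0.0379), an actin-bundling protein, rose and the coronin gene Coro1a fell by 0.55 (adjusted p = 0.0474). In KO, Coro1a had 9.57, 9.74 and 9.45 with IFNγ and 9.99, 10.19 and 9.98 in medium. These KO groups did not overlap, but the fall did not pass the test. Each of the 3 WT calls of Msn, Tagln2 and Coro1a was lost when some single libraries were left out. Coro1a lost its call with voom (0.0502), without both IFNγ C libraries (0.0644) and without any 1 library other than KO IFNγ B or C (0.0515 to 0.153). Tagln2 lost it without any 1 WT library (0.0608 to 0.130), without KO medium B (0.0523), without both IFNγ C libraries (0.0780), with no filter (0.0827) and with upper-quartile centring (0.0513). Msn lost it without any 1 WT library other than medium A (0.0672 to 0.243), without KO IFNγ C (0.0575) or KO medium C (0.0544), without both IFNγ C libraries (0.105), with no filter (0.0901) and with median centring (0.0634). None of the 32 was called between KO and WT, in medium (2 at an unadjusted p under 0.05) or with IFNγ (1).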

How the data were processed

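The authors deposited 1 table of log2 values for 12 libraries, with gene identifiers and symbols. The submitters' processing notes name GRCm38 and, with no roles, the tools STAR, HTSeq 0.6.1, DESeq2 1.10.1 and FastQC 0.11.2. Each value is log2 of a count divided by a library size factor, plus 1: 100% turn back into whole reads within 0.01, and these reads gave depths and shares. Genes at 3 or more in at least 3 libraries were kept, 10981 of 46078 (16924 had a read). Differences were tested with limma 3.58.1 (R 4.3.3): a mean per group, 8 residual degrees of freedom, trended empirical Bayes, two-sided, Benjamini-Hochberg over all kept genes. It was tested on simulated data. The p-values set each difference against the spread between these libraries, pooled over the 4 groups. For the fold bounds only, a group without reads was set to a floor of 3 reads, while levels and limma differences kept it at 0.

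Positions came from GENCODE M21 (GRCm38), and promoters from RefSeq (GRCm38.p6), with 7 windows for the 6 members. The members, gene lists and alternatives were chosen with earlier results of these data known. Named were all members, Actb, Atg5 and Mylk, the called gene with the largest change in each direction per list and comparison, and the 3 genes most like each member. S100a4, Capza2, Msn, Tagln2, Irf1, the neighbours of Myh10 and other genes outside this rule were named after their values were seen. Deviations of libraries from their group means correlated at -0.06 to 0.22 over 18 same-letter pairs. Letters were not used as pairs in the main test. Some items are not reported here.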

Additional observations from a re-analysis of the deposited data

How the results depend on the processing

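Alternatives were no filter, a stricter filter, a pseudocount of 8, voom on recovered reads, median and upper-quartile centring, the replicate letter as a block, leaving out each library, and, added after seeing the data, leaving out both IFNγ C libraries. No called value changed sign in any of these. Leaving out 1 library gave 424 to 1084 calls for IFNγ in WT, 513 to 959 for IFNγ in KO, 24 to 57 for KO against WT in medium, 23 to 83 for KO against WT with IFNγ, and 0 to 3 for the difference between the responses. Without both C libraries IFNγ in WT gave 1119, treated genotypes 18 and the difference between responses 3. With voom the untreated genotypes gave 30 and the treated ones 84, which gave 32 with no filter and 86 with a pseudocount of 8. With the replicate block the treated genotypes gave 89 calls and the difference between responses 1, which was Myh10, and no other count moved by more than 1.5 times. Correlations of deviations from the group means had a median of 0.054 over 18 same-letter pairs, with 2 over 0.1. Over 36 pairs of different letters the median was -0.013, with 1 over 0.1. The highest, 0.22, was between both IFNγ C libraries. Whether libraries of a letter share a source of variation was not tested. The causes were not tested. For members, 493 of 500 alternative values moved by less than the spread between replicates; the others are Myh10 with a pseudocount of 8 (3.21 for IFNγ in KO, -2.62 between untreated genotypes, 2.02 for the difference between responses) and with voom (-6.25), and Myl12b without KO medium C. For other named genes 40 of 460 alternatives lost a call. At these depths a gene with few reads in KO medium cannot be told from one with none.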
